A study of Arabidopsis thaliana with 3 samples.

Results

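The small RNAs of dcl1-9 seedlings were compared with those of Col, the wild type, in Arabidopsis thaliana. Both libraries came from untreated 22-day-old seedlings of the Col ecotype that were grown in soil under long days. Each genotype was sequenced as 1 library, so that 2 of the 3 libraries of the series were compared. The third, from the cdf2 mutant, is used for a single side value. The dcl1-9 allele encodes a DCL1 protein that lacks its C-terminal double-stranded RNA-binding domains. Small RNA libraries hold no DCL1 mRNA, so the genotype was not checked from the reads. Of the 328 miRNA rows in the Col counts, 308 were joined to a dcl1-9 row, 292 under the same name and 16 under a later name, and the 201 rows with at least 10 Col reads were used. Each row is a named miRNA, and 196 rows were taken as guide strands and 5 as the other strand of a hairpin. Just inside that minimum, the 7 rows with 10 to 12 Col reads had at most 7 dcl1-9 reads, and just outside it, the 10 rows with 7 to 9 Col reads had at most 4. With 1 library per genotype no difference has a replicate check, no test across plants was possible, and every interval below is a 95% Clopper-Pearson interval that covers counting error only.

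In plants, miRNAs are cut in the nucleus from hairpin transcripts by DCL1, an RNase III enzyme that works with the double-stranded RNA-binding protein HYL1 and the zinc-finger protein SERRATE. The released duplex yields a guide strand, which is loaded into an Argonaute protein and directs cleavage or translational repression of target mRNAs, and a star strand, which is usually discarded. Many conserved plant miRNAs target transcription factors of development, while others adjust nutrient use or the silencing machinery itself. Some young hairpins with long, nearly perfect stems are known to be cut by DCL4 in place of DCL1.

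The guide sequences on which the results turn are given 5′ to 3′ with the seed, bases 2 to 8, in capitals, taken from RefSeq's annotation of the TAIR10.1 genome. RefSeq held an entry for 198 of the 201 rows, and 55 of these were matched by a name without an arm to the arm registered first, so that the version counted in the libraries may differ. The first lines hold the shared seed of miR166 and miR165 and the related guides of miR156 and miR157, both with closely related members that kept different shares of their Col level, the miR161 guides come from 1 hairpin, miR390a triggers tasiRNAs, and the rest are among the miRNAs that kept the most or the least.
miR166a: uCGGACCAggcuucauucccc
miR165a: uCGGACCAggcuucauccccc
miR156a: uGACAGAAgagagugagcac
miR156h: uGACAGAAgaaagagagcac
miR157a: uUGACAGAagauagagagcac
miR157d: uGACAGAAgauagagagcac
miR161.1: uGAAAGUGacuacaucggggu
miR161.2: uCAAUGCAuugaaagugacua
miR168a: uCGCUUGGugcaggucgggaa
miR160a: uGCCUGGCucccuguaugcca
miR390a: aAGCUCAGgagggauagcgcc
miR822: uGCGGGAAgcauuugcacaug
miR839: uACCAACCuuucaucguuccc
miR5642a: uCUCGCGCuuguacggcuuu
miR396a: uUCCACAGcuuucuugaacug
miR173: uUCGCUUGcagagagaaaucac
miR158a: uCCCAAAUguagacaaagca
miR391: uUCGCAGGagagauagcgcca

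miR166a and miR165a differ by U17C, counted from the 5′ end, and miR156h differs from miR156a by G11A and U14A. The miR157d sequence is that of miR157a without its first base, and it therefore has the miR156 seed.

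miRNA levels were far lower in dcl1-9 than in Col. Levels are given as RPM, the reads per 1000000 reads of the library total that the authors list, which was 9443719 reads for dcl1-9 and 14073145 for Col, so that 1 read is 0.106 RPM in dcl1-9 and 0.0711 RPM in Col. The percent kept is the dcl1-9 RPM as a percent of the Col RPM. Counting each family by its most-read row, miRNAs made up 0.849% of the dcl1-9 total and 19.0% of the Col total, so that 4.47% of the Col level was kept. The median row kept 1.36%. All 201 rows had a lower level in dcl1-9, none had a higher one, and the counting interval of 198 lay wholly below 100%. With dcl1-9 counts of 3 or fewer set to 3 reads, 199 rows (99.0%) were at least 1.5-fold lower and 115 rows (57.2%) at least 10-fold lower. A row needed 45 Col reads to be called 10-fold lower at this depth, and 115 of the 147 rows with as many were. No dcl1-9 read was counted in 68 rows, and 106 had 3 or fewer, 70 of them among the 84 rows with 10 to 99 Col reads. Over the same 201 rows the median ratio of raw reads to Col was 0.916% for dcl1-9 and 77.9% for cdf2, which share the Col library. In whole seedlings, fewer cells making a miRNA and less miRNA per cell cannot be told apart.

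**Figure D1:**
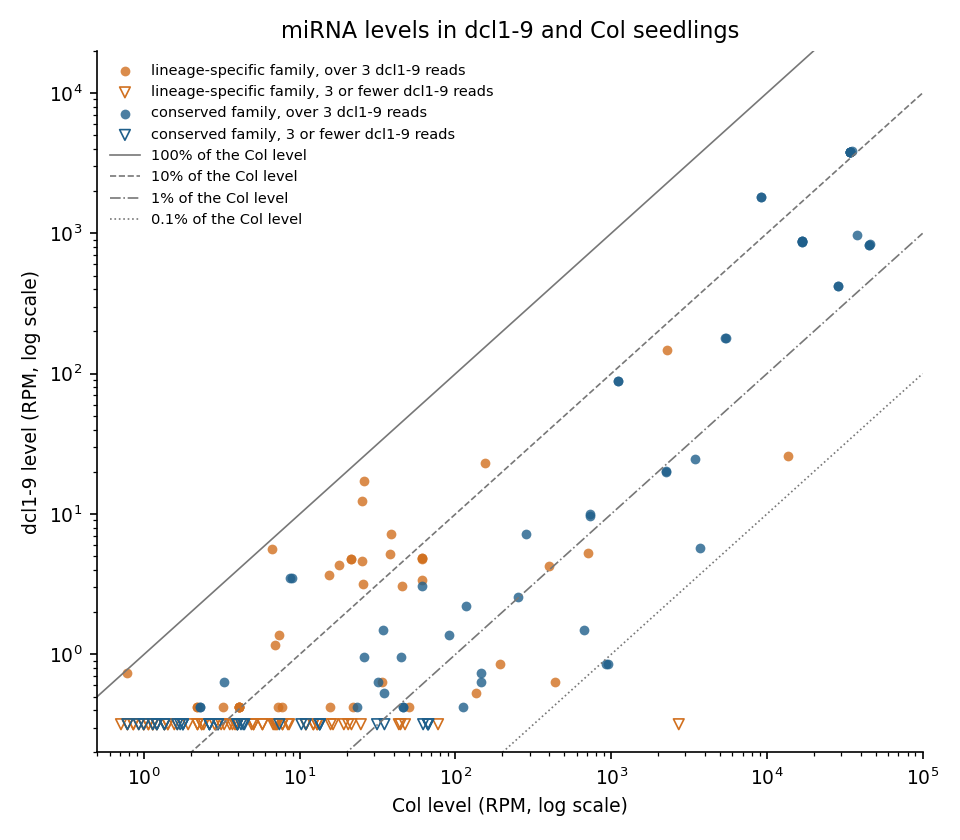
Each of the 201 rows is plotted by its dcl1-9 level (vertical) and its Col level (horizontal), both in RPM on log scales, with lines at fixed percentages of the Col level. Every row lies below the 100% line, and the open triangles, drawn at the level of 3 reads (0.318 RPM), are the 106 rows with 3 or fewer dcl1-9 reads.

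The level of every value above depends on the scale. Other library totals, printed with the published account, rank the libraries the other way by depth and would multiply every percent kept by 0.589. Which totals are right could not be settled from the files. DESeq2 size factors and TMM factors from edgeR, which both take the typical miRNA as equal in the libraries, multiplied every percent kept by 17.5 and 24.4. On the DESeq2 scale 73 rows were at least 1.5-fold lower and 51 at least 1.5-fold higher, and on the TMM scale 64 were lower and 62 higher, against 199 lower and 0 higher by library totals. The order of miRNAs by percent kept is the same on all scales, and the rest of the text is about that order.

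Of the regulators of leaf polarity, miR166 kept more than most, while miR165 kept less than miR166. The miR165 and miR166 families, which target HD-ZIP III transcription factors, share a seed but not their level of retention. miR166a had 36431 reads (3858 RPM) in dcl1-9, against 493332 reads (35055 RPM) in Col, and kept 11.0% (10.9 to 11.1). miR165a had 1691 reads (179 RPM) in dcl1-9, against 76644 reads (5446 RPM) in Col, and kept 3.29% (3.13 to 3.45). The 7 miR166 rows spanned 11.0% to 11.2%, and both miR165 rows lay near 3.3% (3.29% and 3.33%). The counting intervals of the families are therefore well apart although their guides differ by the U17C position alone.

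Among the miRNAs that act on the silencing machinery, the families fell on opposite sides of the median. miR168a, which targets AGO1, had 17206 reads (1822 RPM) in dcl1-9, against 129349 reads (9191 RPM) in Col, and kept 19.8% (19.5 to 20.1). miR162a, which targets DCL1 itself, had 7 reads in dcl1-9, against 2050 in Col, and kept 0.509% (0.204 to 1.05). miR403, which targets AGO2, had 14 reads in dcl1-9, against 9351 in Col, and kept 0.223% (0.122 to 0.375). miR168 thus kept the second largest share among conserved families with at least 100 Col reads. The miR838 row, a miRNA from an intron of DCL1, had 3 Col reads and was below the minimum.

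The auxin-related families covered a wide range. miR160a and miR160c, which target repressive auxin response factors, had the same 33 reads each in dcl1-9, against 121 and 126 reads in Col, and kept 40.6% (26.8 to 60.1) and 39.0% (25.8 to 57.6). The third row with the same sequence, miR160b, had 0 reads in dcl1-9, against 13 in Col. miR160 was the conserved family that kept the most. miR390a, which triggers the tasiRNAs of TAS3 that act on other auxin response factors, had 844 reads (89.4 RPM) in dcl1-9, against 15454 reads (1098 RPM) in Col, and kept 8.14% (7.58 to 8.72). miR167b, which targets activating auxin response factors, had 3955 reads (419 RPM) in dcl1-9, against 405006 reads (28779 RPM) in Col, and kept 1.46% (1.41 to 1.502). The miR393 rows, which act on auxin receptors, had 3 Col reads each and were below the minimum.

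The age and flowering families kept a few percent or less. miR156 and miR157 target SPL transcription factors and are abundant in the juvenile phase, while miR172 targets AP2-like factors in later leaves. By summed rows, miR156 kept 4.25%, miR157 1.80% and miR172 0.896%. Rows with the same sequence share reads, so that these sums hold reads more than once and the row values that follow are the better guide. The most-read miR156 row, miR156d, had 9154 reads in dcl1-9, against 532299 in Col, and kept 2.56% (2.51 to 2.62). The other rows with its sequence, miR156a to miR156c, miR156e and miR156f, kept 5.18% to 5.20%, so the miR156 value depends on the row. The most-read row of Col, miR157c, had 7927 reads (839 RPM) in dcl1-9, against 648158 reads (46056 RPM) in Col, and kept 1.82% (1.78 to 1.86). miR172a had 190 reads (20.1 RPM) in dcl1-9, against 31720 reads (2254 RPM) in Col, and kept 0.893% (0.770 to 1.03).

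The other developmental families covered a range, and by summed rows miR396 and miR169 kept the least of them. miR164b, which acts on NAC factors of organ boundaries, had 91 reads in dcl1-9, against 10315 in Col, and kept 1.31% (1.06 to 1.62). miR159a, which targets MYB factors, had 24 reads in dcl1-9, against 3569 in Col, and kept 1.002% (0.641 to 1.49). The related miR319a, which targets TCP factors, had 1 read in dcl1-9, against 154 in Col (0.968%, 0.0243 to 5.47). miR171a, which targets GRAS factors, had 9 reads in dcl1-9, against 366 in Col, and kept 3.66% (1.66 to 7.03), and miR170, which differs from it by C12U and C14U, had 1 read in dcl1-9, against 17 in Col. miR396a, which targets growth-regulating factors, stood lowest of these with 8 reads (0.847 RPM) in dcl1-9, against 13338 reads (948 RPM) in Col, and kept 0.0894% (0.0386 to 0.176). The miR169 rows, which target NF-YA subunits, included rows with no dcl1-9 reads and rows with a few. miR169d had 0 reads in dcl1-9, against 941 in Col, with an interval that ends at 0.585% (0.475% with 3 reads as the floor). miR169a, which shares a run of 19 bases with miR169d in a frame shifted by 1 base, had 9 reads in dcl1-9, against 628 in Col, and kept 2.14% (0.972 to 4.08).

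The nutrient families were rare in both libraries and mostly near the floor. Of the copper-responsive miRNAs, miR408 had 14 reads in dcl1-9, against 482 in Col, and kept 4.33% (2.35 to 7.33). The remaining copper rows, miR397a and miR397b, miR398a to miR398c and miR857, had 0 or 1 reads in dcl1-9. For phosphate, miR399b had 5 reads in dcl1-9, against 492 in Col, and kept 1.51% (0.490 to 3.56). miR399c, with the same sequence, had 1 read in dcl1-9, against 492 in Col, and kept 0.303% (0.00765 to 1.70). miR827 had 0 reads in dcl1-9, against 62 in Col, with an interval that ends at 9.14%. For sulfate, the miR395b, miR395c and miR395f rows had the same 3 reads in dcl1-9, against 37 in Col, and their interval of 2.38% to 38.2% is too wide to place them. The miR395a, miR395d and miR395e rows, which share another sequence, had 0 reads in dcl1-9, against 25 in Col. miR2111a-5p, which is known to respond to phosphate starvation, had 4 reads in dcl1-9, against 32 in Col (18.6%, 4.79 to 52.5).

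**Figure D2:**
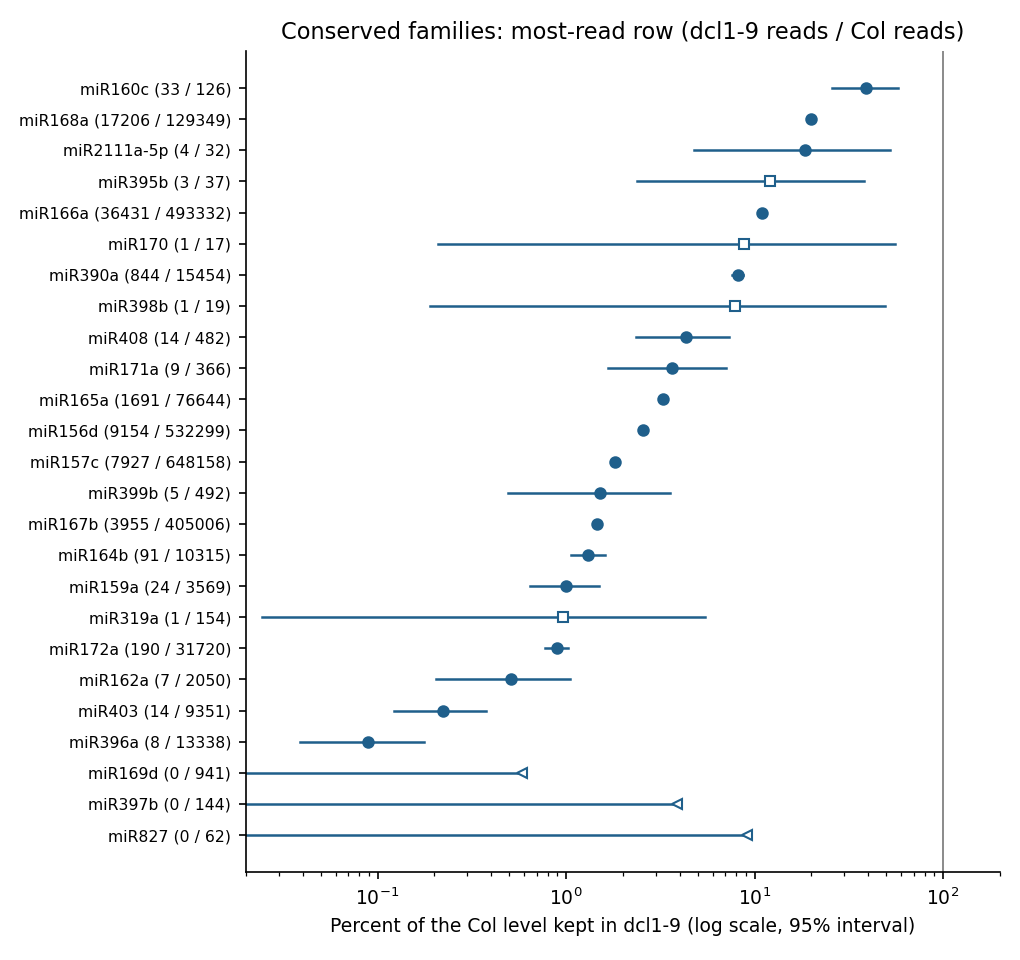
The most-read row of each of the 25 conserved families is plotted by the percent of the Col level kept in dcl1-9 on a log scale, with dcl1-9 and Col reads in brackets. Bars are 95% counting intervals, open squares have 1 to 3 dcl1-9 reads, and left-pointing triangles mark the upper end where no read was counted. miR160c (39.0%) and miR168a (19.8%) lie at the top and miR396a (0.0894%) near the bottom, with miR169d, miR397b and miR827 at 0 reads below it. The row for miR156 is miR156d (2.56%), while the other rows with its sequence kept 5.18% to 5.20%.

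The triggers of tasiRNA production differed by a wide margin. miR390a kept 8.14%, as above, while miR173, which cuts the TAS1 and TAS2 transcripts, had 6 reads in dcl1-9, against 6143 in Col, and kept 0.146% (0.0534 to 0.317). The intervals are far apart. miR173 is a 22-base miRNA found in Arabidopsis and its relatives, so it stands among the lineage-specific families here.

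Families outside the conserved list held both extremes. miR391 and miR158a, which are both abundant in Col, kept very little. miR391 had 2 reads (0.212 RPM) in dcl1-9, against 38218 reads (2716 RPM) in Col, and kept 0.00780% (0.000944 to 0.0282). miR158a had 243 reads (25.7 RPM) in dcl1-9, against 193012 reads (13715 RPM) in Col, and kept 0.188% (0.165 to 0.213). miR775 had 0 reads in dcl1-9, against 1087 in Col, with an interval that ends at 0.507%. miR5026 had 50 reads in dcl1-9, against 10024 in Col, and kept 0.743% (0.551 to 0.981). At the other end, miR5642a had 161 reads (17.0 RPM) in dcl1-9, against 362 reads (25.7 RPM) in Col, and kept 66.3% (54.7 to 80.0). The 5 families that kept the most among the 61 with at least 100 Col reads were miR5642 (57.9% by summed rows), miR160 (37.8%), miR5659 (24.1%), miR5635 (21.2%) and miR168 (19.8%). The least, apart from 11 families with no dcl1-9 read, were miR391, miR396, miR173, miR158 and miR403.

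The miRNAs known from other work as products of DCL4 kept very different shares. miR822 had 218 reads (23.1 RPM) in dcl1-9, against 2178 reads (155 RPM) in Col, and kept 14.9% (12.9 to 17.2). miR839 had 53 reads (5.61 RPM) in dcl1-9, against 93 reads (6.61 RPM) in Col, and kept 84.9%, with an interval of 59.4% to 120% that reaches the Col level. With the other library totals it kept 50.1%, with an interval that ends at 70.9%, below the Col level. miR869.2 had 1 read in dcl1-9, against 667 in Col, and kept 0.223% (0.00565 to 1.25). Only miR840, with 7 reads in dcl1-9, against 11 in Col, and miR835-3p, with 3 reads in dcl1-9, against 12 in Col, had intervals that reached the Col level besides miR839, and both counts are too low to tell retention from a fall. With the other totals miR840 was the 1 row whose interval still reached it.

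The lineage-specific and conserved families could not be ordered at this depth. By summed rows, the median of the 81 lineage-specific families was 0.648% kept, with a range of 0% to 94.8%, and that of the 25 conserved families was 1.80%, with a range of 0% to 37.8%. The ratio of the medians was 0.359. Of the lineage-specific families, however, 57 had 3 or fewer dcl1-9 reads, against 5 of the conserved ones. With such counts set to 3 reads the medians were 9.72% for lineage-specific and 2.98% for conserved families, and the ratio turned to 3.26. Among families whose rows had at least 1000 Col reads, where the floor hardly acts, the median was 0.303% over 8 lineage-specific families (0.415% with the floor) and 1.46% over 13 conserved families, and both ranges reached over 10%.

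A split of the lineage-specific families by their registry number, made after the values were seen, set apart a group that held several of those that kept most. Among families with at least 100 Col reads, the 11 numbered 5000 and above had a median of 13.7% kept, unchanged with the floor, the 26 numbered below 1000 had a median of 0.454% (2.19% with the floor), and the 21 conserved families had 1.46% (1.80% with the floor). Higher numbers were registered later. The late group held miR5642, miR5659 (41 reads in dcl1-9, against 253 in Col), miR5635, miR5644 (44 reads in dcl1-9, against 352 in Col), miR5643 and miR5653 (49 reads in dcl1-9, against 533 in Col), all with over 10% kept, but also miR5645 with 7.12%, miR5020 with 2.41%, miR5026 with 0.743%, miR5014 with 0.648% and miR5663 with 0 reads in dcl1-9, against 120 in Col. The 3 families numbered from 1000 to below 5000 all had 3 or fewer dcl1-9 reads and a median of 0% (3.79% with the floor). With rows of at least 10 Col reads, the families numbered 5000 and above were 26 with a median of 4.38% (16.1% with the floor), and 16 of them had 3 or fewer dcl1-9 reads, so that the split is less clear there.

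**Figure D3:**
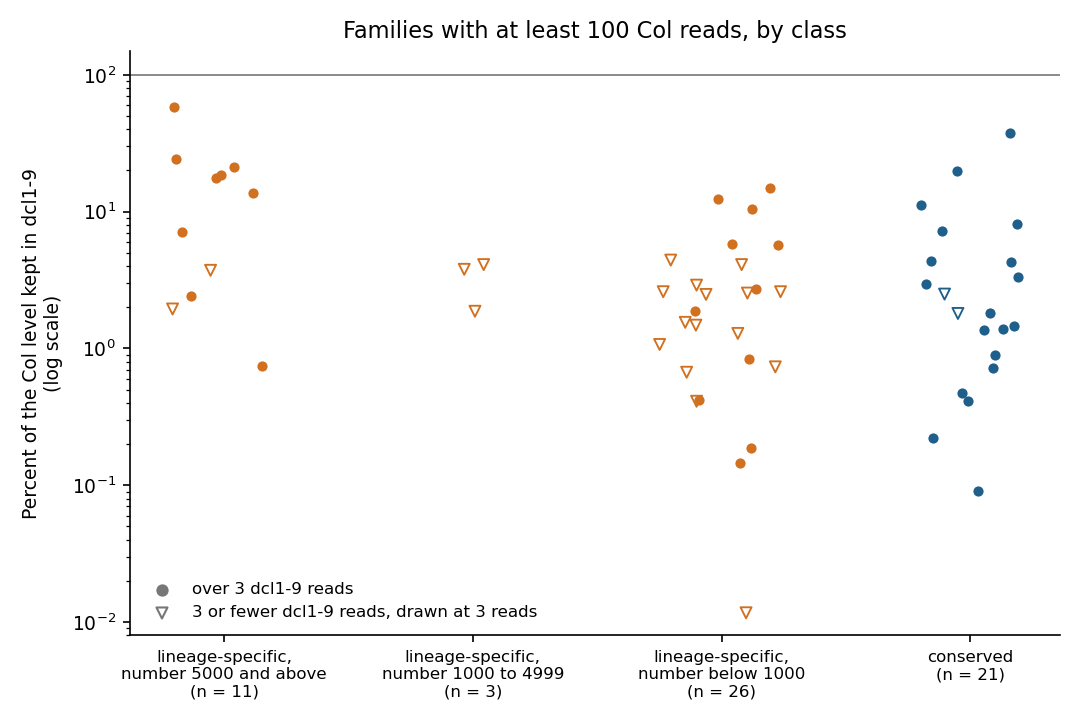
Families with at least 100 Col reads are plotted by class and by the percent of the Col level kept in dcl1-9 on a log scale, using the summed reads of each family. Filled points had over 3 dcl1-9 reads and open triangles are drawn at 3 reads. The 11 families numbered 5000 and above (left) have a median of 13.7%, while the 21 conserved families (right) have 1.46%, with miR160 at 37.8% as the highest.

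Members of a family mostly had overlapping counting intervals, but in many families this could not have come out otherwise. In 19 of the 24 families with at least 2 members of 100 or more Col reads, the intervals of all members overlapped, and in miR156, miR161, miR169, miR157 and miR167 at least a pair had intervals apart. Many overlapping members share a sequence and so their reads, as in miR160, miR162, miR165, miR166, miR168 and miR390. Their overlap does not show that separate members kept the same share. In miR158, miR397 and miR5020 the overlap rests on members with 0 or 1 reads in dcl1-9. Both miR168 rows kept 19.8%, both miR390 rows 8.1% (8.14% and 8.12%), and miR396a and miR396b, which differ by G21U, kept 0.0894% and 0.0913%.

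Among rows with at least 100 Col reads, the widest spread was in miR156. miR156b, which has the sequence of miR156a, had 8280 reads (877 RPM) in dcl1-9, against 237154 reads (16852 RPM) in Col, and kept 5.20% (5.09 to 5.32). miR156h, with the G11A and U14A differences, had 54 reads (5.72 RPM) in dcl1-9, against 52026 reads (3697 RPM) in Col, and kept 0.155% (0.116 to 0.202). The share of miR156b was 33.6 times that of miR156h. miR156d, whose registered sequence is that of miR156a, kept 2.56%, as above. The rows of miR156a and miR156d thus hold different reads although their guide is the same, and the rule by which reads were assigned to rows is not given in the sources used here. In miR157, the 3 rows of the 21-base guide kept 1.82% to 1.83%, while miR157d, without the first base, had 232 reads (24.6 RPM) in dcl1-9, against 48802 reads (3468 RPM) in Col, and kept 0.708% (0.620 to 0.806).

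The miR161 guides, which target PPR genes, are cut from the same hairpin, AT1G48267, on the plus strand. miR161.1 lies at chr1:17825731-17825751 and miR161.2 at chr1:17825722-17825742, shifted by 9 bases with 12 bases shared. miR161.1 had 1389 reads (147 RPM) in dcl1-9, against 31897 reads (2267 RPM) in Col, and kept 6.49% (6.15 to 6.85). miR161.2 had 40 reads (4.24 RPM) in dcl1-9, against 5608 reads (398 RPM) in Col, and kept 1.06% (0.759 to 1.45). The shares differed 6.11-fold between products of 1 precursor. In miR169 the share of miR169a was 4.50 times that of miR169d with miR169d set to 3 reads. With rows of at least 10 Col reads miR169 had the widest spread of all families by this floor. There miR169b had 6 reads in dcl1-9, against 46 in Col, and kept 19.4% (6.78 to 45.6), 40.9 times the floor share of miR169d. miR169c, with the same sequence as miR169b, had 0 reads in dcl1-9, against 24 in Col. The interval of miR169d reaches 0.585%, above its floor share of 0.475%, so neither ratio is a lower bound. In miR167, the 22-base miR167d had 68 reads in dcl1-9, against 4015 in Col, and kept 2.52% (1.96 to 3.21), compared with 1.46% for miR167a and miR167b. In miR159 the shares were 1.002% for miR159a, 0.376% for miR159b (4 reads in dcl1-9, against 1584 in Col) and 0.171% for miR159c (1 read in dcl1-9, against 872 in Col), and in miR5020 they were 5.52% for miR5020a (4 reads in dcl1-9, against 108 in Col) and 0.552% for miR5020b (1 read in dcl1-9, against 270 in Col), with overlapping intervals in both families.

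**Figure D4:**
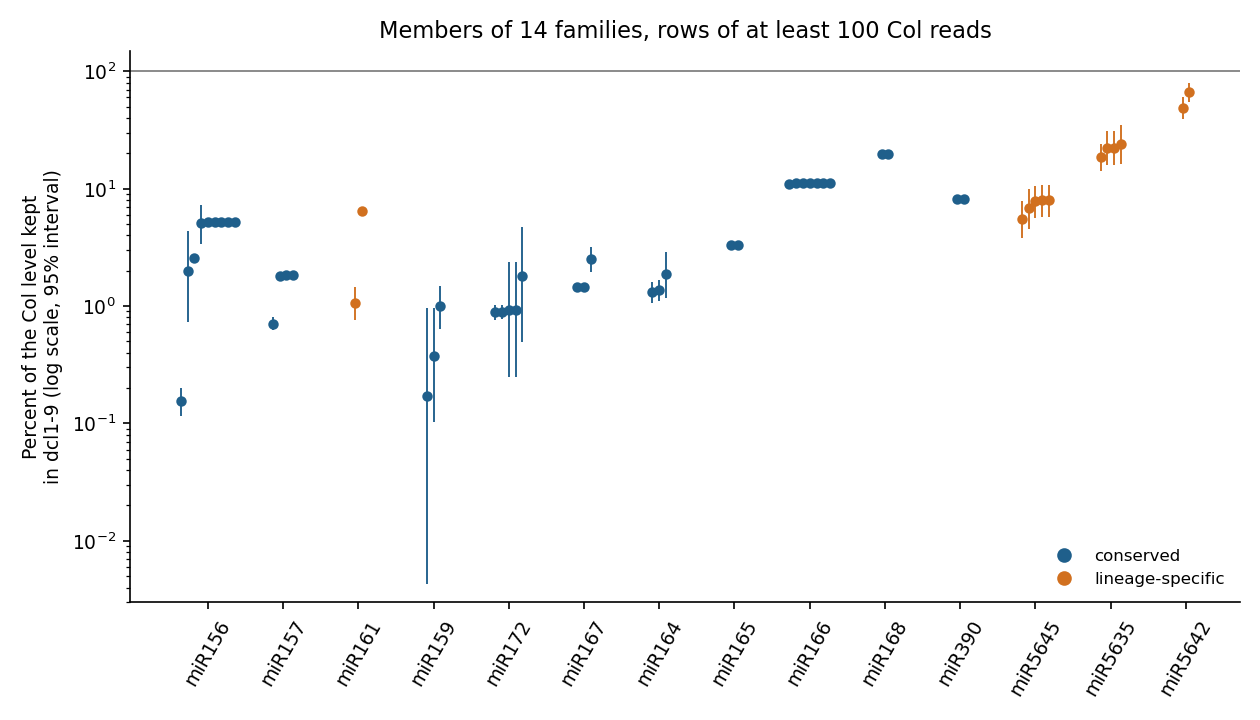
Guide rows with at least 100 Col reads in 14 families are plotted by the percent of the Col level kept in dcl1-9 on a log scale, with 95% counting intervals, and each point is 1 member. miR156h (0.155%), miR157d (0.708%) and miR161.2 (1.06%) stand below the other members of their families, while the 7 miR166 rows lie between 11.0% and 11.2%.

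The unequal retention changed the make-up of the miRNA pool. These shares need no library total, and each family was counted by its most-read row. miR166 made up 45.5% of miRNA reads in dcl1-9, against 18.5% in Col, and miR168 made up 21.5% in dcl1-9, against 4.85% in Col. Together these families held 66.9% of the dcl1-9 pool, and the 5 most-read rows of dcl1-9 were all miR166 rows, while those of Col were miR157c, miR157b, miR157a, miR156d and miR166a. miR157 made up 9.89% of the pool in dcl1-9, against 24.3% in Col. miR156, counted by the miR156d row, made up 11.4% in dcl1-9, against 19.9% in Col. The other rows with that sequence had far fewer Col reads and kept 5.18% to 5.20%. That is above the 4.47% kept over all families, so the fall in the miR156 share rests on the miR156d row. miR167 made up 4.93% in dcl1-9, against 15.2% in Col. miR158 made up 0.303% in dcl1-9, against 7.23% in Col. miR390 and miR161 had larger shares of the dcl1-9 pool, with 1.05% and 1.73% in dcl1-9, against 0.579% and 1.19% in Col. Conserved families held 96.9% of the pool in dcl1-9, against 88.9% in Col.

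**Figure D5:**
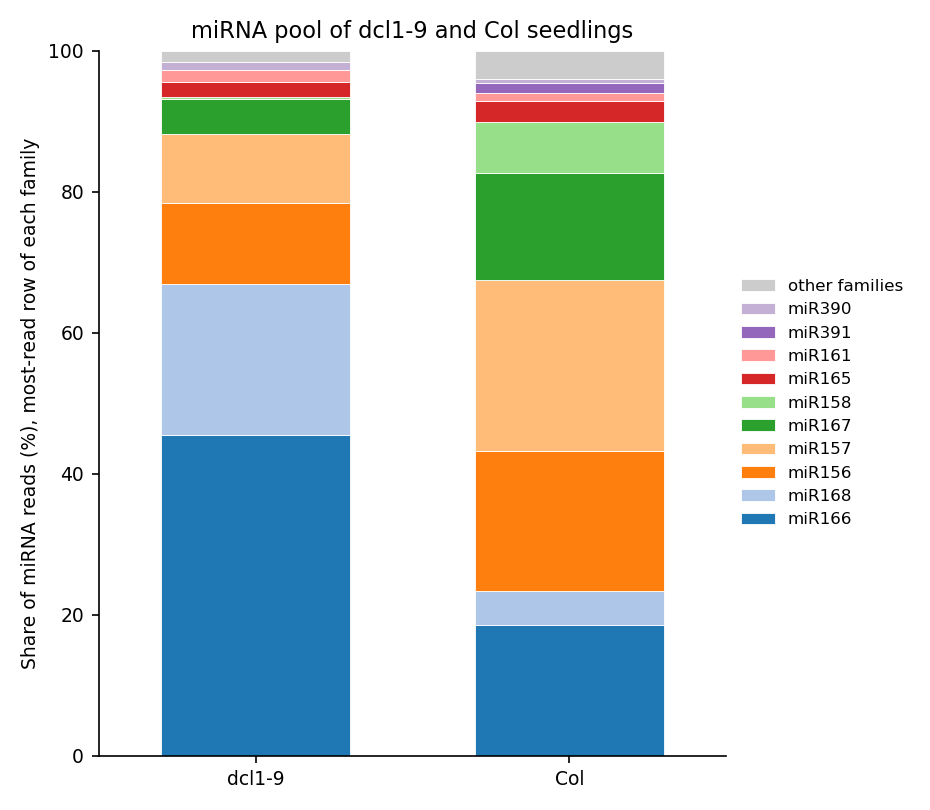
Stacked bars give the share of miRNA reads (%) of each family in dcl1-9 (left) and Col (right), with each family counted by its most-read row. miR166 and miR168 fill 66.9% of the dcl1-9 bar, and miR158, with 7.23% in Col, is nearly absent from it with 0.303%.

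The other strand could be set beside the guide in 5 hairpins. For miR172b, the miR172b-5p strand had 13 reads in dcl1-9, against 1275 in Col, and kept 1.52% (0.807 to 2.61), while its guide had 189 reads in dcl1-9, against 31720 in Col, and kept 0.888% (0.766 to 1.02). The 5p strand made up 6.44% (3.47 to 10.8) of the reads of this hairpin in dcl1-9, against 3.86% (3.66 to 4.08) in Col, and the intervals overlap. For miR841b, the 3p strand had 4 reads in dcl1-9, against 308 in Col, and the 5p strand 1 read in dcl1-9, against 99 in Col. Here the 3p strand, taken as the other strand by its name, had more reads than the 5p strand in both libraries. Both strands of miR169g, miR851 and miR5648 had 0 reads in dcl1-9, so their strands could not be compared.

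Features of the sequences that played no part in choosing the rows were set beside the percent kept, over distinct guide sequences with at least 100 Col reads. The 48 sequences with 1 exact match on the nuclear chromosomes had a median of 0.465% kept, the 25 with 2 to 7 matches had 1.51%, and the 2 with more had 5.06% and 18.6%. Of these, 21 of the 48 and 5 of the 25 had 3 or fewer dcl1-9 reads. By length, the 11 sequences of 20 bases had a median of 2.01% and the 53 of 21 bases 1.002%. The 8 of 22 bases had 0.0728%, and 6 of these had 3 or fewer dcl1-9 reads. The 1 sequence of 23 bases kept 24.1%, and the 2 of 24 bases kept 1.89% and 13.7%. By the first base, the medians were 0.843% over 59 sequences with U, 0.908% over 10 with A, 2.07% over 4 with C and 10.2% over 2 with G. The first base is known to guide sorting into Argonaute proteins. These groups differ in family and depth as well, and the part of each was not tested.

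The position of miR5642 stands out among the miRNAs that kept the most. The miR5642a guide lies at chr3:14197116-14197135 and that of miR5642b at chr2:3145-3164, both on the plus strand of TAIR10.1 and both 542 bases before the start of an annotated 18S ribosomal RNA gene, AT3G41768 and AT2G01010. These were the only 2 of 198 placed rows within 1000 bases of an annotated nuclear ribosomal RNA gene. The annotation holds only 4 such genes, and each row was checked at 1 position even where its sequence has more matches. miR5642b lies within the annotated protein-coding gene AT2G01008. miR5642b had 117 reads (12.4 RPM) in dcl1-9, against 354 reads (25.2 RPM) in Col, and kept 49.3% (39.6 to 60.9). Whether these reads are products of an miRNA hairpin was not tested. miR839, at chr1:25279138-25279158 on the minus strand (AT1G67481), and miR822, at chr5:897287-897307 on the minus strand within AT5G03553, each have 1 exact match in the nuclear chromosomes.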

How the data were processed

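Counts were the raw reads per miRNA that the authors deposited for each library, after they trimmed adaptors and mapped small RNA reads with Bowtie (version not given in the sources used here) to miRBase hairpins. The submitters' processing notes name the TAIR10 build. Reads shared by members of a family can stand in several counts. A second deposited table, in which the authors give counts, library totals and RPM for dcl1-9 and Col, supplied the totals and was used to join 16 renamed rows, where its Col count equalled that of the count file. The study's methods name perfectly aligned reads as the base of normalization, but whether the deposited totals are those reads is not stated. The RPM values there write 0 reads as 0.01. Its fold changes and p-values, and the table for cdf2, were not used. RPM and percent kept were recomputed from counts.

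Families were formed by number, and a family value is the sum of its guide rows with at least 10 Col reads. Conserved families were a list of 29 plant families, of which miR393, miR394, miR828 and miR858 had no row with 10 Col reads. The members and lists were chosen with earlier results of these data known. miRNAs were named if they belong to a conserved or role family, were among the 5 families keeping most or least, the 5 most-read rows, the 5 families with the widest spread, or a strand pair. miR775, miR5014, miR5645, miR5026, miR5663, miR5644, miR5643, miR5653, miR840 and miR835-3p were named after their values were seen. Counts of 3 or fewer reads were the floor (0.318 RPM in dcl1-9 and 0.213 RPM in Col). Intervals are Clopper-Pearson intervals of the dcl1-9 reads among the reads of both libraries and treat each read as an independent draw. No molecular identifiers were used, so they cover counting error only. They were tested on simulated independent counts, the model that they assume, so that this check does not cover shared reads or spread between plants. Alternatives were other library totals, DESeq2 1.42.0 size factors and edgeR 4.0.16 TMM factors, other minimum reads, the floor, rows with the same counts counted once, only rows with the same name, the most-read row, and a narrower conserved list. Python 3.11.15 with scipy 1.17.1 and R 4.3.3 were used.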

Additional observations from a re-analysis of the deposited data

Results flagged for a closer look

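Rows of dcl1-9 that could not be joined to a Col count were outside every comparison above, and 2 of them held more reads than the floor of 3. miR5014b had 5 reads (0.529 RPM) in dcl1-9, and the table in which the authors list both libraries gives 58 reads for Col. miR5996 had 6 reads (0.635 RPM) in dcl1-9, against 732 reads for Col in that table. Both were singled out only because they carry reads above the limit that a count of 0 allows in rows not otherwise used, and at counts this low their percent kept is not given.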

How the results depend on the processing

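The library scale changed the most. With DESeq2 size factors the median row kept 23.9%, conserved families 31.6% and lineage-specific families 11.3%, and 73 rows were at least 1.5-fold and 18 at least 10-fold lower, while with TMM these counts were 64 and 9. On the DESeq2 scale 33 families were above the Col level. Among the conserved families, those with a named role and those that kept the most or the least, some lower calls turned. They were miR160 (663% of the Col level), miR166 (195%), miR168 (347%), miR170 (154%), miR390 (142%) and miR395 (126%). Also turned were miR822 (261%), miR2111 (326%), miR5635 (372%), miR5642 (1013%) and miR5659 (423%), and miR839 stood at 1488%. These values follow by construction from a factor that sets the typical miRNA with reads in both libraries equal. With the total reads of the published account every percent kept was multiplied by 0.589 (log2 shift -0.76), and 146 rows were at least 10-fold lower. With a minimum of 1 Col read the median row kept 0.376% and the ratio of class medians was 0, and with 100 Col reads 117 rows remained, all at least 1.5-fold lower, and the ratio was 0.550. With counts of 3 or fewer at the floor the median row kept 7.58% and lineage-specific families 9.72%, and the ratio of class medians turned to 3.26. By the most-read row of each family the ratio was 0.303. Counting rows with the same counts once gave 177 and 106 rows at least 1.5-fold and 10-fold lower, and rows with the same name alone gave 183 and 102. Moving the 4 families shared only among eudicots to the lineage-specific class left the ratio at 0.359. No paired analysis was possible because each genotype has 1 library, and for the same reason no library could be left out. Depth limits the rows under 45 Col reads, where a 10-fold fall cannot be shown.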
